A study of Homo sapiens with 12 samples.

Results

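The 10 genes described here encode the path from glucose uptake to lactate, 1 gene for each of 10 of its steps, chosen by name with earlier results of these data known: the glucose transporter SLC2A1 (GLUT1), the hexokinase HK2, glucose-6-phosphate isomerase GPI, the liver-type phosphofructokinase PFKL, aldolase ALDOA, triosephosphate isomerase TPI1, glyceraldehyde-3-phosphate dehydrogenase GAPDH, phosphoglycerate kinase PGK1, enolase ENO1 and lactate dehydrogenase LDHA. They are 10 of the 60707 genes in the count table, and all 10 are among the 17859 that passed the filter on low counts. Glycolysis is the chain of cytosolic reactions that turns glucose into pyruvate, and with glucose uptake before it and lactate formation after it, it supplies ATP and building blocks to dividing cells. Fast-growing lymphoma cells are known for high glycolysis with lactate release, and transcription of these genes is known to be raised by the factors HIF1 and MYC, which bind the short E-box-like sequence ACGTG or CACGTG in many of their promoters.

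The RNA came from Raji, an established human Burkitt lymphoma line of the germinal centre B-cell type, carrying an auxin-inducible degron system that removes the protein SMARCA4 (BRG1), the ATPase of the SWI/SNF chromatin remodeller. Cells in a GFP-high and a GFP-low gate were exposed to FX1, a compound that blocks the repressor protein BCL6, or to its vehicle DMSO, and taken at 24 h. The groups were GFP-high FX1, GFP-high DMSO, GFP-low FX1 and GFP-low DMSO, with 3 libraries each and 12 in all. The labels give the genotype Smarca4+/+ for all 12 libraries and do not tie the GFP gate to an amount of SMARCA4 protein or to auxin, so the groups are named by gate and treatment only. SMARCA4 RNA differed by a log2 change, GFP-low minus GFP-high, of 0.23 under FX1 and 0.05 under DMSO, and RNA does not show the amount of protein. The labels do not state whether libraries of the same group are from different cultures, and the p-values therefore refer to library-to-library spread, possibly technical.

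Libraries held between 20454028 and 42556661 gene counts. The 4 B-cell markers MS4A1, CD79A, CD79B and PAX5 summed to between 1340 and 1660 CPM (TMM-scaled counts per 1e6) in every library, whereas 6 T and NK cell markers summed to at most 7.54 CPM, 5 myeloid markers to at most 6.44 CPM and 6 epithelial and stromal markers to at most 17.3 CPM. The share of counts from mitochondrial genes was 4.23 to 4.32% in GFP-high FX1, 7.84 to 7.91% in GFP-high DMSO, 5.05 to 5.13% in GFP-low FX1 and 4.72 to 4.84% in GFP-low DMSO. With scaling factors computed without mitochondrial genes and genes above 1% of counts, the calls of the 10 glycolysis genes described below were the same except that TPI1 was also lower for FX1 in GFP-low cells (−0.04 on the log2 scale), HK2 was also lower in GFP-low than in GFP-high cells under FX1 (−0.05), and the FX1 effect on HK2 no longer differed between the gates by the test (0.05). In bulk RNA, fewer cells expressing a gene and less RNA per cell cannot be told apart.

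A short sequence was searched for in the promoters of the 10 genes, which were chosen by name with earlier results of these data known. Because such sequences are already known in many of these promoters, finding them is not an independent observation. RefSeq promoter windows (GRCh38.p14, 250 bases before to 50 after a transcript start) were found for all 10 genes, 15 windows in all, and were searched on both strands for ACGTG and GCGTG, the core of the sequence that HIF1 binds. The E-box CACGTG holds ACGTG on both strands and so counts as 2 overlapping matches. At least 1 match was present in 14 of the 15 windows (93.3%), against 48.4% of all 35116 promoter windows of that length, which were not matched for base content. By gene, 10 of 10 had a match in at least 1 window, but some have several windows and no share of all genes was computed. CACGTG itself was present in 4 windows, those of HK2, ALDOA, GAPDH and LDHA, 26.7% of the 15, against 7.26% of all windows. A match is a description of the letters and not of binding. Below are the windows of LDHA, HK2 and PGK1, which hold the most matches (6, 6 and 4), and the window of TPI1 at its upstream start, which holds 0. The other TPI1 window holds 2 matches. LDHA, HK2 and PGK1 fell under FX1 in GFP-high cells, with log2 changes of −1.52, −1.02 and −0.90. The windows of SLC2A1 and GPI hold 1 match each, and both genes fell there too, at −0.99 and −0.65. The 3 windows of ALDOA hold 1, 2 and 1 matches, CACGTG included, and its FX1 change, from an uncertain count, did not pass the test. Whether the number of matches goes with the change in RNA was not tested. Each window below is written 5′ to 3′ on the plus strand, which is the strand of all 4 genes, and capitals mark the matches on either strand.
LDHA promoter, chr11:18394313-18394612: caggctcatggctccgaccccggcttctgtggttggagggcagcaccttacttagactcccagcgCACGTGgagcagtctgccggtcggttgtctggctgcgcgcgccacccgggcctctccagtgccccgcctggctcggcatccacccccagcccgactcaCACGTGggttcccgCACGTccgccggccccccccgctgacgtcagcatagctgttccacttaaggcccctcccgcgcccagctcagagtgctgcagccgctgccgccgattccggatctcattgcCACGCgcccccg
HK2 promoter, chr2:74834920-74835219: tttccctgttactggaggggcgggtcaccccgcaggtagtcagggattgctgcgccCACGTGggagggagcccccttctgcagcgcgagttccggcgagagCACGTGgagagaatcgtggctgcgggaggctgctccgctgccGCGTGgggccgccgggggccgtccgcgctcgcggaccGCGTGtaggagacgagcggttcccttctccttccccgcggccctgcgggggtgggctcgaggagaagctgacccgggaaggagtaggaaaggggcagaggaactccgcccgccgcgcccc
PGK1 promoter, chrX:78103998-78104297: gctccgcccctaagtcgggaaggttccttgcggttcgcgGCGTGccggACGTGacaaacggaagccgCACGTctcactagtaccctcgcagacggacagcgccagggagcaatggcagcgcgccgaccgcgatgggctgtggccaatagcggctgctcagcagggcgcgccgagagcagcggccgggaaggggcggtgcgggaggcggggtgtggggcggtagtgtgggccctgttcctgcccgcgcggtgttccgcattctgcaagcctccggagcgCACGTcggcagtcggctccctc
TPI1 promoter, chr12:6867281-6867580: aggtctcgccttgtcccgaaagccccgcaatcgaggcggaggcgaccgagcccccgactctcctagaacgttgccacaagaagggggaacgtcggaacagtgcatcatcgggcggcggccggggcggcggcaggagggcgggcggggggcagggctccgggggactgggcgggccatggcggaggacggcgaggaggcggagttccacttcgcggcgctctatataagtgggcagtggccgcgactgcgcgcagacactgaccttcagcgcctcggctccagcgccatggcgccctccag

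FX1 lowered the RNA of most of the pathway in both gates. By edgeR's quasi-likelihood test with Benjamini-Hochberg adjustment over 17859 genes, at a threshold of 0.05, 8 of the 10 genes fell and 1 rose in GFP-high cells. There, 68.4% of all tested genes were called, 34.6% lower and 33.8% higher. In GFP-low cells 8 of the 10 fell and 0 rose, where 68% of all tested genes were called, 34.3% lower and 33.7% higher. The same 8 genes fell in both gates: SLC2A1, HK2, GPI, PFKL, GAPDH, PGK1, ENO1 and LDHA. For these 8 every FX1 library lay below every DMSO library of its gate, as it did for 35.4% of all tested genes in GFP-high and 35.2% in GFP-low cells. The median log2 change of the 10 was −0.69 in GFP-high and −0.88 in GFP-low cells, against −0.01 in either gate over all tested genes. A fall of at least 2-fold was measured for HK2 and LDHA in GFP-high cells, where 11.1% of all tested genes fell that far, and for GPI, PGK1 and LDHA in GFP-low cells, where 9.04% did. The FX1 effects in the 2 gates share no libraries, but they come from a joint fit with the same filter, scaling and estimate of spread. They are therefore not fully separate.

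**Figure D1:**
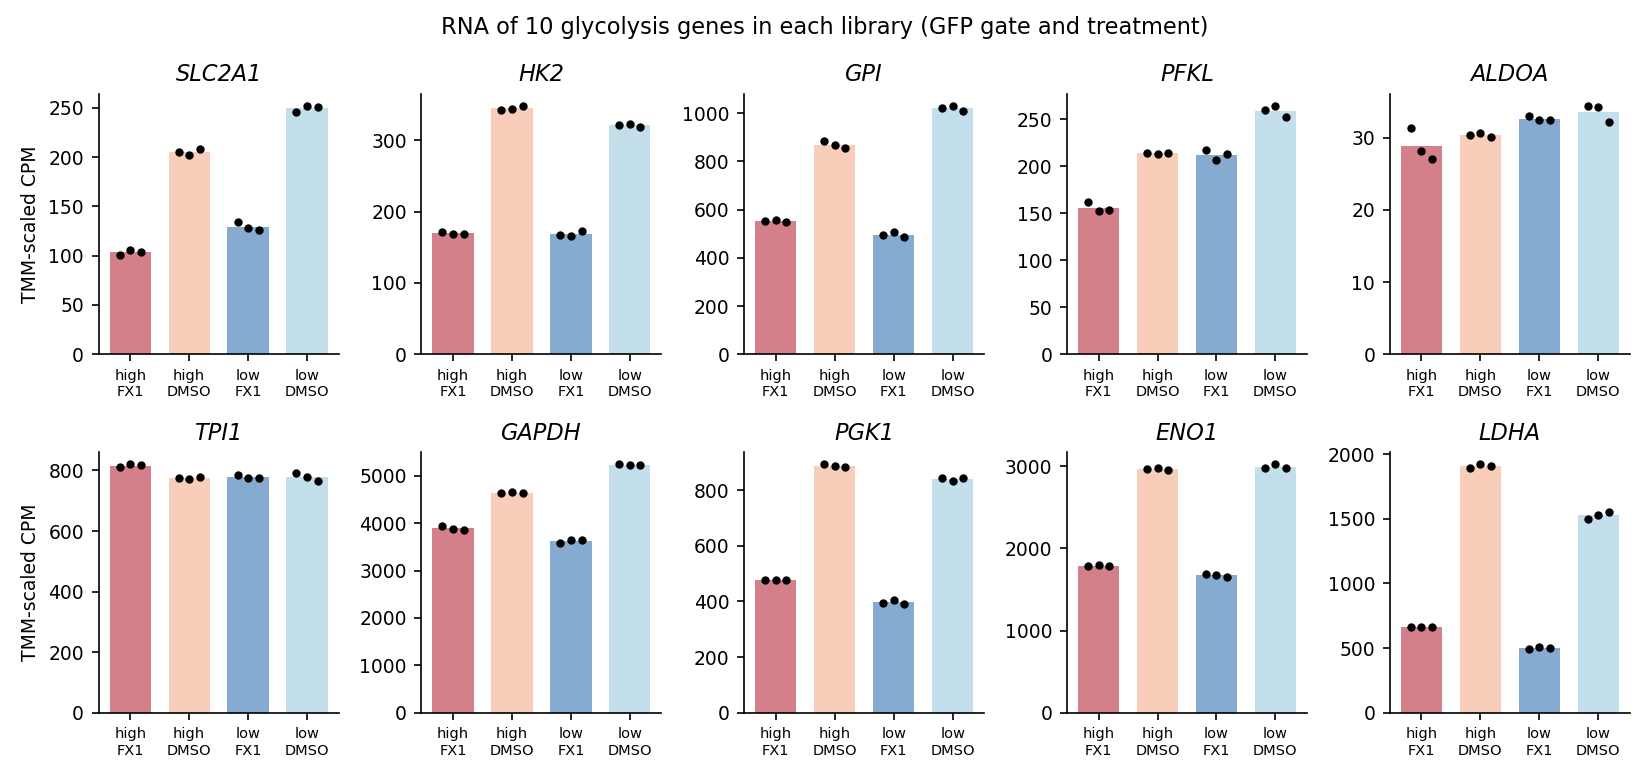
CPM, TMM-scaled (vertical axes, from 0), of the 10 genes in each of the 12 libraries, grouped by GFP gate and treatment. Dots are libraries and bars are group means (n = 3 each); in both gates the FX1 dots lie below the DMSO dots for 8 genes, and not for ALDOA and TPI1.

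Glucose enters through SLC2A1 and is trapped as glucose 6-phosphate by HK2, the hexokinase that is induced in many tumours. SLC2A1 (chr1:42925353-42958893, minus strand) had 101, 106 and 104 CPM in GFP-high FX1 libraries, against 205, 202 and 208 CPM in GFP-high DMSO libraries. In GFP-low cells SLC2A1 had 134, 128 and 126 CPM under FX1, against 246, 252 and 251 CPM under DMSO. All FX1 libraries were thus below all DMSO libraries of their gate, by a log2 change of −0.99 (SE 0.0227, adjusted p = 1.06e-113) in GFP-high and −0.94 (SE 0.0215, adjusted p = 1.34e-114) in GFP-low cells, by edgeR's quasi-likelihood test. HK2 (chr2:74834127-74893359, plus strand) had 172, 169 and 168 CPM in GFP-high FX1 libraries, against 342, 344 and 348 CPM in GFP-high DMSO libraries. In GFP-low cells HK2 had 167, 166 and 173 CPM under FX1, against 321, 322 and 319 CPM under DMSO. The groups did not overlap in either gate, and the log2 changes were −1.02 (SE 0.0182) in GFP-high and −0.93 (SE 0.0184) in GFP-low cells. The difference of these HK2 effects, 0.09 (SE 0.0259, adjusted p = 0.00238), passed the threshold by edgeR's test, but it lost the call without any one of the 3 GFP-high DMSO libraries, at 0.04 to 0.05. The corresponding SLC2A1 difference, 0.04 (SE 0.0314, adjusted p = 0.314), did not pass.

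The next steps rearrange and phosphorylate the sugar before it is cut. GPI, which makes fructose 6-phosphate, lies at chr19:34359480-34402413 on the plus strand. It had 553, 558 and 548 CPM in GFP-high FX1 libraries, against 885, 867 and 855 CPM in GFP-high DMSO libraries, and 494, 506 and 488 CPM in GFP-low FX1 libraries, against 1020, 1030 and 1010 CPM in GFP-low DMSO libraries. FX1 groups lay below DMSO groups in both gates without overlap, by a log2 change of −0.65 (SE 0.0133) in GFP-high and −1.04 (SE 0.0133) in GFP-low cells. GPI was the gene of the 10 with the largest difference between the gates, −0.38 (SE 0.0188, adjusted p = 3.09e-52, edgeR's quasi-likelihood test), meaning a deeper fall in GFP-low cells. PFKL, a subunit of the phosphofructokinase that commits sugar to glycolysis, lies at chr21:44300051-44327376 on the plus strand. It had 162, 152 and 153 CPM in GFP-high FX1 libraries, against 214, 213 and 214 CPM in GFP-high DMSO libraries, and 217, 206 and 213 CPM in GFP-low FX1 libraries, against 260, 264 and 252 CPM in GFP-low DMSO libraries. The groups did not overlap within either gate, although the GFP-low FX1 libraries overlapped the GFP-high DMSO libraries. PFKL fell, with a log2 change of −0.46 (SE 0.0207) in GFP-high and −0.29 (SE 0.0195) in GFP-low cells. PFKL is the most GC-rich of the 10 transcripts, at 64.1% GC, and after removal of a smooth trend on GC content and length its changes were −0.87 in GFP-high and −0.90 in GFP-low cells.

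Aldolase and TPI1 stand in the middle of the pathway, where the cut sugar gives 2 interconvertible triose phosphates. ALDOA (chr16:30064164-30070457, plus strand) had 31.4, 28.1 and 27 CPM in GFP-high FX1 libraries, against 30.4, 30.6 and 30.1 CPM in GFP-high DMSO libraries, and 33, 32.4 and 32.4 CPM in GFP-low FX1 libraries, against 34.4, 34.2 and 32.2 CPM in GFP-low DMSO libraries. The groups overlapped in both gates, and neither log2 change, −0.07 (SE 0.0512, adjusted p = 0.213) nor −0.04 (SE 0.0492, adjusted p = 0.445), passed edgeR's test in GFP-high or GFP-low cells. The GFP-high change passed without GFP-high FX1 replicate 1, at −0.13, and both passed with upper quartile scaling, at −0.15 and −0.11. The ALDOA count is uncertain, because 54.2% of its exonic bases lie in exons of other genes, 42.8% in those of a same-strand gene, and it had only 11242 counts over all 12 libraries, against 1539723 for GAPDH. TPI1 (chr12:6867119-6870948, plus strand) had 810, 820 and 817 CPM in GFP-high FX1 libraries, against 775, 772 and 777 CPM in GFP-high DMSO libraries. In GFP-low cells TPI1 had 786, 776 and 774 CPM under FX1, against 793, 780 and 764 CPM under DMSO. TPI1 therefore rose slightly in GFP-high cells, by a log2 change of 0.07 (SE 0.0129, adjusted p = 8.32e-08, edgeR), whereas the GFP-low groups overlapped, with a change of −0.00 (SE 0.0129, adjusted p = 0.956). Leaving out any one of the 3 GFP-high DMSO libraries brought the GFP-low change to −0.04 to −0.05 and past the threshold. The sign depends on the scaling: in GFP-high cells the TPI1 change was −0.01 with upper quartile scaling and −0.05 with the GC and length trend removed, and in GFP-low cells it was 0.06 with library totals and −0.18 with the trend removed.

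GAPDH and PGK1 carry out the energy-yielding steps that follow. GAPDH (chr12:6534512-6538374, plus strand), often used as a reference gene, had 3940, 3880 and 3850 CPM in GFP-high FX1 libraries, against 4630, 4650 and 4630 CPM in GFP-high DMSO libraries, and 3590, 3650 and 3640 CPM in GFP-low FX1 libraries, against 5240, 5220 and 5230 CPM in GFP-low DMSO libraries. FX1 libraries were lower in both gates without overlap, by a log2 change of −0.25 (SE 0.00994) in GFP-high and −0.53 (SE 0.00995) in GFP-low cells. The difference of −0.28 (SE 0.014, adjusted p = 1.82e-49, edgeR) between the gates passed the test. Removing the GC and length trend gave −0.42 and library totals gave −0.16 for GAPDH in GFP-high cells. PGK1 (chrX:77910739-78129295, plus strand), which makes the first ATP of the pathway, had 476, 476 and 476 CPM in GFP-high FX1 libraries, against 892, 888 and 882 CPM in GFP-high DMSO libraries. In GFP-low cells PGK1 had 396, 406 and 390 CPM under FX1, against 844, 833 and 843 CPM under DMSO. PGK1 fell without overlap in both gates, by a log2 change of −0.90 (SE 0.0134) in GFP-high and −1.08 (SE 0.0137) in GFP-low cells, with a difference of −0.18 (SE 0.0192, adjusted p = 2.05e-16, edgeR) between them.

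The pathway ends with ENO1, which makes phosphoenolpyruvate, and LDHA, which reduces pyruvate to lactate and returns the NAD+ that GAPDH needs. ENO1 (chr1:8861000-8879190, minus strand) had 1780, 1800 and 1790 CPM in GFP-high FX1 libraries, against 2970, 2980 and 2950 CPM in GFP-high DMSO libraries, and 1690, 1680 and 1650 CPM in GFP-low FX1 libraries, against 2980, 3020 and 2980 CPM in GFP-low DMSO libraries. The log2 changes of ENO1 were −0.73 (SE 0.0108) in GFP-high and −0.84 (SE 0.0108) in GFP-low cells, with no overlap of groups. LDHA (chr11:18394560-18408425, plus strand) had 665, 663 and 664 CPM in GFP-high FX1 libraries, against 1890, 1920 and 1910 CPM in GFP-high DMSO libraries. In GFP-low cells LDHA had 495, 505 and 500 CPM under FX1, against 1500, 1530 and 1550 CPM under DMSO. LDHA showed the largest fall of the 10 genes in both gates, 2.88-fold in GFP-high cells (log2 change −1.52, SE 0.0122, adjusted p = 3.62e-217) and 3.05-fold in GFP-low cells (log2 change −1.61, SE 0.0126, adjusted p = 1.48e-219), by edgeR's quasi-likelihood test. In GFP-high cells 5.97% of all tested genes had a lower log2 change than LDHA.

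**Figure D2:**
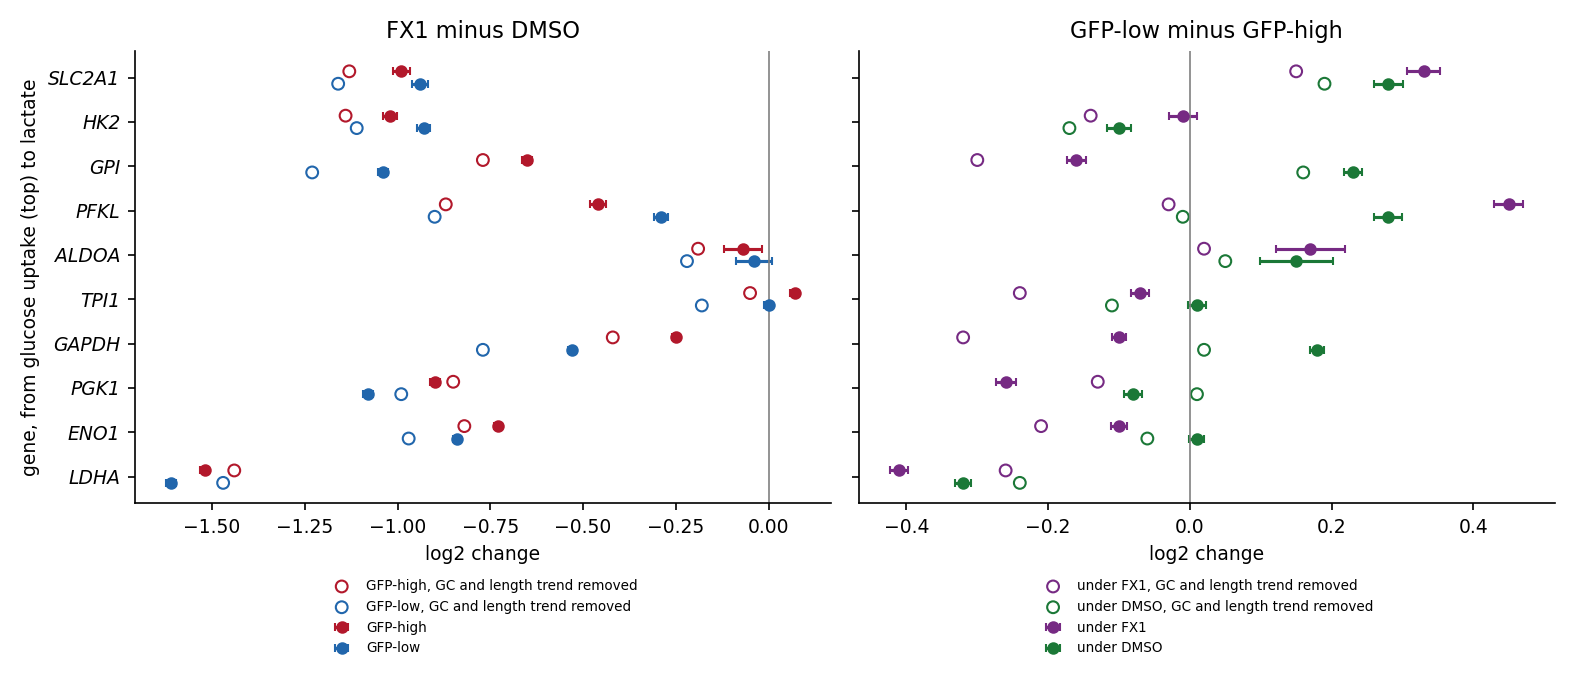
Log2 changes of the 10 genes, from glucose uptake at the top to lactate at the bottom: FX1 minus DMSO in each gate (left panel) and GFP-low minus GFP-high under each treatment (right panel). Filled points with bars are estimates ± SE from 12 libraries, and open points are estimates after removal of the GC and length trend; LDHA lies furthest left in the left panel at −1.52 and −1.61, and the PFKL gate effects of 0.45 and 0.28 move to −0.03 and −0.01 as open points.

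Tested against a floor of 1.5-fold instead of no change, 6 of the 10 genes were still called lower in each gate: SLC2A1, HK2, GPI, PGK1, ENO1 and LDHA. Of all tested genes, 12.4% were called lower at that floor in GFP-high and 11% in GFP-low cells. After removal of the GC and length trend, all 10 were called lower in both gates, ALDOA at −0.19 (adjusted p = 0.000598) in GFP-high and −0.22 (adjusted p = 3.4e-05) in GFP-low cells by edgeR, and TPI1 at the values given above. Of all genes with a GC value, 33.8% were then called lower in GFP-high and 30.5% in GFP-low cells.

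Summed over the 10 genes, their share of all gene counts was 0.857% ± 0.00452 in GFP-high FX1 and 1.19% ± 0.0023 in GFP-high DMSO libraries (SD, n = 3 each). The share was 0.852% ± 0.00486 in GFP-low FX1 and 1.35% ± 0.00418 in GFP-low DMSO libraries. Each pair was separated without overlap, which gives p = 0.1 in a two-sided exact permutation test, the smallest p that 3 against 3 libraries allow. The share without GAPDH, the most abundant of the 10, was 0.472% in GFP-high FX1 and 0.761% in GFP-high DMSO libraries, and 0.466% in GFP-low FX1 and 0.818% in GFP-low DMSO libraries. With mitochondrial genes taken out of the total, the shares of all 10 were 0.896% in GFP-high FX1 and 1.29% in GFP-high DMSO, and 0.897% in GFP-low FX1 and 1.42% in GFP-low DMSO libraries.

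Compared per length of exon, as scaled counts divided by exon length (RPKM), the levels of the 10 genes spanned a wide range. In GFP-high FX1 libraries GAPDH was highest at 1620 RPKM, followed by ENO1 at 344, TPI1 at 302, LDHA at 110, PGK1 at 87.5, GPI at 51.8, HK2 at 28.7, PFKL at 17.4, SLC2A1 at 15.7 and ALDOA at 7.53 RPKM. In GFP-high DMSO libraries GAPDH was highest at 1930 RPKM, followed by ENO1 at 569, LDHA at 316, TPI1 at 287, PGK1 at 163, GPI at 81.4, HK2 at 58.2, SLC2A1 at 31, PFKL at 23.9 and ALDOA at 7.93 RPKM. LDHA thus stood below TPI1 and SLC2A1 below PFKL under FX1, and above them under DMSO. In GFP-low cells TPI1 was above LDHA under both treatments, at 288 against 82.8 RPKM under FX1 and at 289 against 253 RPKM under DMSO. Of the 36 pairs of neighbours in the 4 orders, 0 overlapped in their libraries. The order also depends on the length used: with the longest transcript of each gene, GPI at 200 RPKM stood above PGK1 at 182 RPKM in GFP-high DMSO libraries. With that length SLC2A1 at 28.2 RPKM also stood above PFKL at 25.9 RPKM in GFP-high FX1 libraries, and LDHA at 631 RPKM above TPI1 at 442 RPKM in GFP-low DMSO libraries. The low rank of ALDOA carries the uncertainty of its count.

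Between the gates the 10 genes differed in mixed directions, by at most 0.45 in size on the log2 scale. Each gate comparison shares its libraries with the FX1 comparisons. Under DMSO, GFP-low cells had higher RNA than GFP-high cells for 5 of the 10 genes and lower RNA for 3, by edgeR's test, where 46.1% of all tested genes were called, 21.7% higher and 24.4% lower. The log2 changes, GFP-low minus GFP-high, were 0.28 (SE 0.0208) for SLC2A1, 0.28 (SE 0.0199) for PFKL, 0.23 (SE 0.0129) for GPI, 0.18 (SE 0.00992) for GAPDH and 0.15 (SE 0.0513) for ALDOA. They were −0.32 (SE 0.0117) for LDHA, −0.10 (SE 0.0172) for HK2 and −0.08 (SE 0.0131) for PGK1, while ENO1 and TPI1, both at 0.01, did not pass. The calls of these last genes depend on the processing: with the GC and length trend removed both were lower, at −0.06 and −0.11, and with upper quartile scaling (both at 0.05) or library totals (0.15 and 0.14) both were higher. The median of the 10 was 0.08, against 0.03 over all tested genes. With the GC and length trend removed, 2 of the 10 were called higher (19.6% of all genes), SLC2A1 at 0.19 and GPI at 0.16, and PFKL stood at −0.01, GAPDH at 0.02, ALDOA at 0.05 and PGK1 at 0.01. Scaling by library totals shifted the median of all tested genes to 0.16 in this comparison, and the split of the 10 was then 8 higher and 1 lower (37.8% and 12.8% of all genes), with LDHA the lower one at −0.19 and GPI at 0.37. The summed share of the 10 genes was 1.35% in GFP-low DMSO and 1.19% in GFP-high DMSO libraries (two-sided exact permutation p = 0.1, the smallest possible).

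Under FX1, GFP-low cells had higher RNA than GFP-high cells for 3 of the 10 genes and lower RNA for 6, where 56.9% of all tested genes were called, 30.2% higher and 26.7% lower. PFKL stood at 0.45 (SE 0.0203), SLC2A1 at 0.33 (SE 0.0236) and ALDOA at 0.17 (SE 0.049) on the log2 scale. LDHA stood at −0.41 (SE 0.0129), PGK1 at −0.26 (SE 0.0141), GPI at −0.16 (SE 0.0136), ENO1 at −0.10 (SE 0.0108), GAPDH at −0.10 (SE 0.00995) and TPI1 at −0.07 (SE 0.0127), and HK2 at −0.01 (SE 0.0194) did not pass edgeR's test. The median of the 10 was −0.08, against 0.08 over all tested genes. LDHA had the most negative gate change of the 10 genes under both treatments, −0.41 under FX1 and −0.32 under DMSO. Removing the GC and length trend left SLC2A1 as the 1 gene of the 10 called higher (27.5% of all genes), at 0.15, with PFKL at −0.03 and ALDOA at 0.02, and gave −0.26 for LDHA, −0.13 for PGK1 and −0.14 for HK2, which then passed. HK2 also passed, at −0.06, without any one of the GFP-high DMSO libraries. Library totals shifted the median of all tested genes to 0.18 and gave 5 higher and 3 lower (39.6% and 20.7% of all genes), with ENO1 and GAPDH at −0.00, PGK1 at −0.16, TPI1 at 0.03 and HK2 at 0.09. The summed share of the 10 genes, 0.852% in GFP-low FX1 and 0.857% in GFP-high FX1 libraries, did not separate the gates (difference −0.00594, two-sided exact permutation p = 0.2), and the difference was 0.00139 (p = 0.8) with mitochondrial genes taken out. Without GAPDH the share of the other 9 genes was 0.466% in GFP-low FX1 and 0.472% in GFP-high FX1 libraries, and the libraries of the gates did not overlap (exact permutation p = 0.1, the smallest possible).

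The FX1 effect itself was tested for a difference between the gates. It was more negative in GFP-low than in GFP-high cells for 6 of the 10 genes and less negative for 2, where 31.3% of all tested genes were called, 16.5% lower and 14.8% higher. The 6 were GPI, GAPDH and PGK1 at the values above, ENO1 at −0.11 (SE 0.0152), LDHA at −0.08 (SE 0.0174) and TPI1 at −0.07 (SE 0.0182). The 2 were PFKL at 0.17 (SE 0.0285) and HK2, while ALDOA at 0.03 (SE 0.071) and SLC2A1 did not pass. The median of the 10 differences was −0.08, against 0.02 over all tested genes. With the GC and length trend removed, GPI at −0.46, GAPDH at −0.35, ENO1 at −0.15, PGK1 at −0.14 and TPI1 at −0.13 were still called, whereas LDHA at −0.02, PFKL at −0.02 and HK2 at 0.02 were not. Against a floor of 1.5-fold, 0 of the 10 differences passed.

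Several steps have a second isozyme, and under FX1 the balance within a step differed from that under DMSO. The ratios below are given as values, with no test of their own. LDHB encodes the lactate dehydrogenase subunit that favours pyruvate formation. LDHB had 163, 167 and 162 CPM in GFP-high FX1 libraries, against 124, 122 and 122 CPM in GFP-high DMSO libraries, and 129, 123 and 122 CPM in GFP-low FX1 libraries, against 175, 169 and 171 CPM in GFP-low DMSO libraries. FX1 thus moved LDHB in opposite directions, by a log2 change of 0.42 (SE 0.0237) in GFP-high and −0.46 (SE 0.0233) in GFP-low cells, and the difference of −0.88 (SE 0.0332, adjusted p = 2.35e-70, edgeR) passed the test. Of the LDHB exonic bases, 33.4% lie in exons of another gene on the same strand. The ratio of LDHA to LDHB counts per base of exon was 2 ± 0.0387 in GFP-high FX1 and 7.7 ± 0.127 in GFP-high DMSO libraries, and 1.99 ± 0.0714 in GFP-low FX1 and 4.39 ± 0.136 in GFP-low DMSO libraries (SD, n = 3 each). The ratios of the FX1 groups overlapped each other, and those of the DMSO groups did not.

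SLC2A3 (GLUT3), a high-affinity glucose transporter, fell further than SLC2A1, with log2 changes of −2.08 (SE 0.0603) in GFP-high and −2.15 (SE 0.0612) in GFP-low cells. The ratio of SLC2A1 to SLC2A3 was accordingly 9.69 ± 0.602 in GFP-high FX1 and 4.53 ± 0.203 in GFP-high DMSO libraries, and 13.1 ± 0.559 in GFP-low FX1 and 5.58 ± 0.132 in GFP-low DMSO libraries. HK1, the hexokinase of most tissues, fell with HK2, with log2 changes of −0.81 (SE 0.0281) in GFP-high and −0.60 (SE 0.0291) in GFP-low cells. The ratio of HK2 to HK1 was 2.32 ± 0.0363 in GFP-high FX1 and 2.69 ± 0.0947 in GFP-high DMSO libraries, and 2.45 ± 0.0876 in GFP-low FX1 and 3.08 ± 0.00369 in GFP-low DMSO libraries.

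PFKM, the muscle-type phosphofructokinase subunit, rose as PFKL fell, by 0.36 (SE 0.0211) in GFP-high and 0.42 (SE 0.0209) in GFP-low cells. The ratio of PFKL to PFKM was 0.611 ± 0.0135 in GFP-high FX1 and 1.08 ± 0.0245 in GFP-high DMSO libraries, and 0.797 ± 0.0202 in GFP-low FX1 and 1.3 ± 0.0742 in GFP-low DMSO libraries. PFKP, the platelet-type subunit, stood at −0.08 (SE 0.0265, adjusted p = 0.00279) in GFP-high cells and at −0.02 (SE 0.026, adjusted p = 0.449) in GFP-low cells, by edgeR. The ratio of PFKL to PFKP was 1.23 ± 0.0303 in GFP-high FX1 and 1.6 ± 0.0366 in GFP-high DMSO libraries, and 1.57 ± 0.0511 in GFP-low FX1 and 1.88 ± 0.0556 in GFP-low DMSO libraries. The GFP-high PFKP call was lost without GFP-high FX1 replicate 2, at −0.06, and its GFP-low change passed without any one of the GFP-high DMSO libraries, at −0.07. ALDOC, the aldolase isozyme best known from brain, was the most lowered of the other isozymes. It fell to 52.4, 52.4 and 50.1 CPM in GFP-high FX1 libraries, against 229, 236 and 232 CPM in GFP-high DMSO libraries, and to 63.9, 63.6 and 61.1 CPM in GFP-low FX1 libraries, against 291, 286 and 285 CPM in GFP-low DMSO libraries. The log2 changes of ALDOC were −2.17 (SE 0.0252) in GFP-high and −2.19 (SE 0.024) in GFP-low cells. ENO2 stayed at or below 1.35 CPM in every library, and its changes of −0.51 (SE 0.354) in GFP-high and 0.62 (SE 0.295) in GFP-low cells did not pass edgeR's test.

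**Figure D3:**
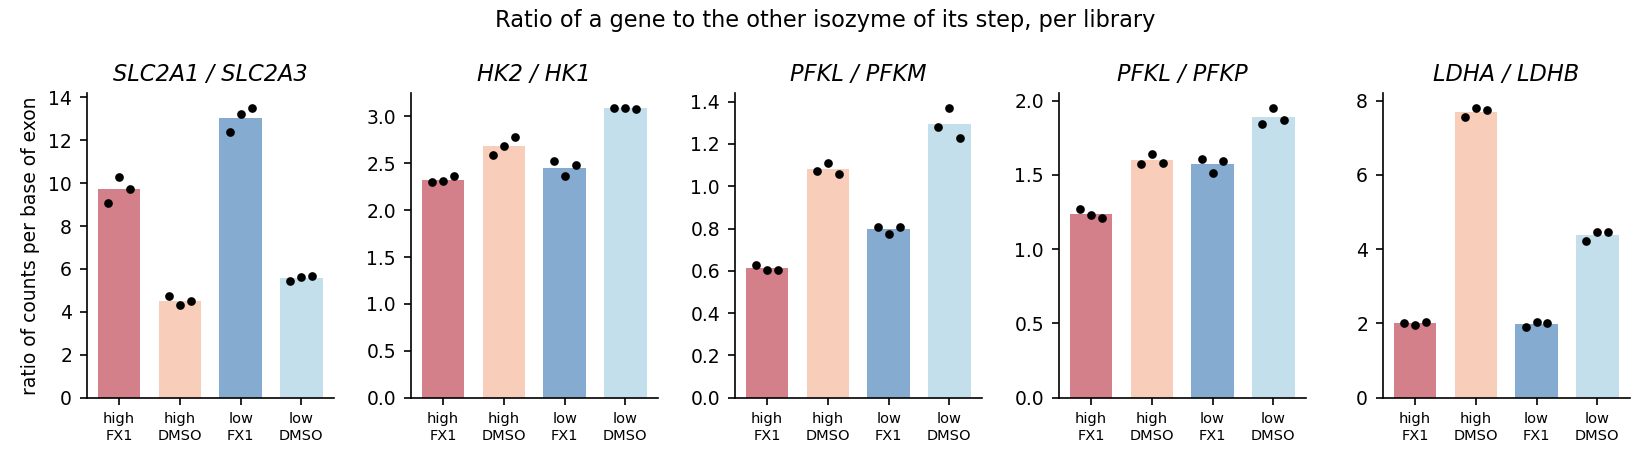
Ratio of a gene to another isozyme of its step, as counts per base of exon (vertical axes, linear and from 0), in each of the 12 libraries by GFP gate and treatment. Dots are libraries and bars are group means (n = 3 each); the LDHA to LDHB ratio averaged 2 and 1.99 in the FX1 groups and 7.7 and 4.39 in the DMSO groups.

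The steps between ENO1, PGK1 and LDHA are served by genes outside the 10. PGAM1, the phosphoglycerate mutase between PGK1 and ENO1, fell, with log2 changes of −0.53 (SE 0.0224) in GFP-high and −0.88 (SE 0.0226) in GFP-low cells. PKM, the pyruvate kinase before LDHA, changed little, by 0.07 (SE 0.0112) in GFP-high and −0.07 (SE 0.0112) in GFP-low cells. The sign of the GFP-high PKM change depends on the scaling, at −0.01 with upper quartile scaling and −0.04 with the GC and length trend removed. Across the alternatives the GFP-low PKM change ranged from −0.24 to −0.01. Of the whole list of 24 other isozymes and steps, 15 were tested. Under FX1, 7 rose and 7 fell in GFP-high cells, and 5 rose and 7 fell in GFP-low cells, with medians of −0.08 and −0.07. Of all tested genes, 33.8% rose and 34.6% fell in GFP-high cells and 33.7% rose and 34.3% fell in GFP-low cells, with a median of −0.01 in each gate. SLC2A6, a lysosomal relative of the glucose transporters, rose by 1.17 (SE 0.0527) in GFP-high and 1.12 (SE 0.0484) in GFP-low cells, the GFP-low value being 0.58 with the GC and length trend removed.

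Genes of a list of switches around glycolysis moved in both directions under FX1. The list holds PFKFB and PDK genes, TIGAR, BSG and transporters such as SLC16A1 and SLC16A7. TIGAR, BSG and SLC16A7 were singled out after their values were seen. In GFP-high cells, FX1 and DMSO means were 40 and 28.2 CPM for TIGAR, 195 and 148 for BSG and 64.2 and 53.9 for SLC16A7. In GFP-low cells they were 31.1 and 28.4 CPM for TIGAR, 229 and 162 for BSG and 46.4 and 55.2 for SLC16A7. Of 10 tested switch genes, 4 rose and 5 fell under FX1 in GFP-high cells, and 3 rose and 6 fell in GFP-low cells, with medians of −0.08 and −0.18, where 33.8% of all genes rose and 34.6% fell in GFP-high cells and 33.7% and 34.3% did in GFP-low cells. PFKFB4 and PFKFB3 make fructose 2,6-bisphosphate, the activator of phosphofructokinase. PFKFB4 had 10.7, 11 and 8.47 CPM in GFP-high FX1 libraries, against 165, 167 and 162 CPM in GFP-high DMSO libraries, and 16.2, 17.2 and 16.1 CPM in GFP-low FX1 libraries, against 227, 232 and 226 CPM in GFP-low DMSO libraries. It fell, with log2 changes of −4.03 (SE 0.0398) in GFP-high and −3.79 (SE 0.0351) in GFP-low cells, further than any of the 10 glycolysis genes. PFKFB3 fell, with log2 changes of −1.67 (SE 0.0335) in GFP-high and −1.55 (SE 0.031) in GFP-low cells. PDK1, which inhibits pyruvate dehydrogenase, fell, with log2 changes of −1.51 (SE 0.0212) in GFP-high and −1.65 (SE 0.0215) in GFP-low cells. PDK2, another inhibitor of pyruvate dehydrogenase, was singled out after its values were seen and rose, by 0.52 (SE 0.119) in GFP-high and 0.64 (SE 0.115) in GFP-low cells. Its level was low, with FX1 and DMSO means of 6.32 and 4.42 CPM in GFP-high and 7.3 and 4.62 CPM in GFP-low cells. PDK3, of the same family and also singled out afterwards, was lower under FX1, at 81.2 against 113 CPM in GFP-high and 67 against 120 CPM in GFP-low cells.

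The pentose phosphate pathway, which draws glucose 6-phosphate away from GPI to make NADPH and ribose, was mostly higher under FX1. Of 6 of its genes, all tested, 5 rose and 0 fell under FX1 in GFP-high cells, and 5 rose and 1 fell in GFP-low cells. Of all tested genes, 33.8% rose and 34.6% fell in GFP-high cells, and 33.7% rose and 34.3% fell in GFP-low cells. The median log2 changes of the 6 genes were 0.26 and 0.36, against −0.01 over all tested genes in each gate. TALDO1, the transaldolase, had 353, 352 and 355 CPM in GFP-high FX1 libraries, against 173, 170 and 173 CPM in GFP-high DMSO libraries, and 307, 309 and 318 CPM in GFP-low FX1 libraries, against 171, 163 and 169 CPM in GFP-low DMSO libraries. TALDO1 rose by 1.04 (SE 0.0185) in GFP-high and 0.89 (SE 0.0187) in GFP-low cells, and in each gate its FX1 libraries all lay above its DMSO libraries. PGD, which makes ribulose 5-phosphate, rose by 0.36 (SE 0.0132) in GFP-high cells and by 0.36 in GFP-low cells. The lactonase PGLS rose by 0.34 (SE 0.0592) in GFP-high cells, 0.12 and not called with the GC and length trend removed, and by 0.47 (SE 0.0559) in GFP-low cells, 0.15 with the trend removed. RPE, the ribulose-phosphate epimerase, fell in GFP-low cells, at −0.44 (SE 0.0275), and at −0.09 with the trend removed. Against the 1.5-fold floor TALDO1 passed in both gates, whereas PGD and PGLS passed in neither gate and RPE did not pass in GFP-low cells.

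Other glucose-handling lists were mixed, and their counts stand beside shares of all tested genes of 33.8% higher and 34.6% lower under FX1 in GFP-high cells, and 33.7% and 34.3% in GFP-low cells. Of 10 tested genes of gluconeogenesis and glycogen, 3 rose and 5 fell under FX1 in each gate, with the glycogen branching enzyme GBE1 at −1.17 (SE 0.0282) in GFP-high and −1.20 (SE 0.0314) in GFP-low cells. The glycogen phosphorylase PYGB stood at 1.11 (SE 0.0411) in GFP-high and 0.89 (SE 0.0389) in GFP-low cells, the GFP-low value being 0.56 with the GC and length trend removed, and the glucose-6-phosphatase G6PC3 at 0.71 (SE 0.0446) and 0.69 (SE 0.0438). Of 22 genes of the tricarboxylic acid cycle and pyruvate dehydrogenase, 9 rose and 9 fell in GFP-high cells, and 6 rose and 11 fell in GFP-low cells, with medians of −0.01 and −0.11. SUCLG2, a subunit of succinyl-CoA ligase, fell, with log2 changes of −1.13 (SE 0.0437) in GFP-high and −1.18 (SE 0.0451) in GFP-low cells, and PDHB, a subunit of pyruvate dehydrogenase, had −0.43 (SE 0.0276) and −0.51 (SE 0.0284). The succinate dehydrogenase subunit SDHA fell, with log2 changes of −0.42 (SE 0.0485) in GFP-high and −0.14 in GFP-low cells. The GFP-low SDHA call was lost without GFP-low FX1 replicate 3, at −0.11. The pyruvate dehydrogenase component PDHX had −0.36 in GFP-high and −0.53 (SE 0.0364) in GFP-low cells.

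Of 9 tested regulators that sense oxygen or glucose, 5 rose and 2 fell under FX1 in GFP-high cells, and 5 rose and 4 fell in GFP-low cells, where 68.4% and 68% of all tested genes were called in either direction, about as many higher as lower. TXNIP, which restrains glucose uptake and is itself induced by glucose, had 80.7, 76.9 and 79.2 CPM in GFP-high FX1 libraries, against 160, 158 and 156 CPM in GFP-high DMSO libraries, and 82, 82.2 and 79 CPM in GFP-low FX1 libraries, against 168, 171 and 170 CPM in GFP-low DMSO libraries. It fell 2-fold in GFP-high and 2.09-fold in GFP-low cells. EGLN1, the prolyl hydroxylase that marks HIF1A protein for destruction, fell, with log2 changes of −0.83 (SE 0.0734) in GFP-high and −0.75 (SE 0.0667) in GFP-low cells, and the glucose-sensing factor MLXIP rose by 0.85 (SE 0.0265) and 0.83 (SE 0.0251), the GFP-low MLXIP value being 0.45 with the trend removed. HIF1A RNA stood at 222, 221 and 218 CPM in GFP-high FX1 libraries, against 176, 179 and 183 CPM in GFP-high DMSO libraries, and at 166, 163 and 166 CPM in GFP-low FX1 libraries, against 204, 196 and 193 CPM in GFP-low DMSO libraries. Its change of 0.30 in GFP-high and −0.26 in GFP-low cells differed by −0.55 (SE 0.0291, adjusted p = 1.4e-47, edgeR), but after removal of that trend the GFP-low change was 0.08 and the difference −0.32. HIF1A activity is set mainly at the protein level, which RNA does not show.

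**Figure D4:**
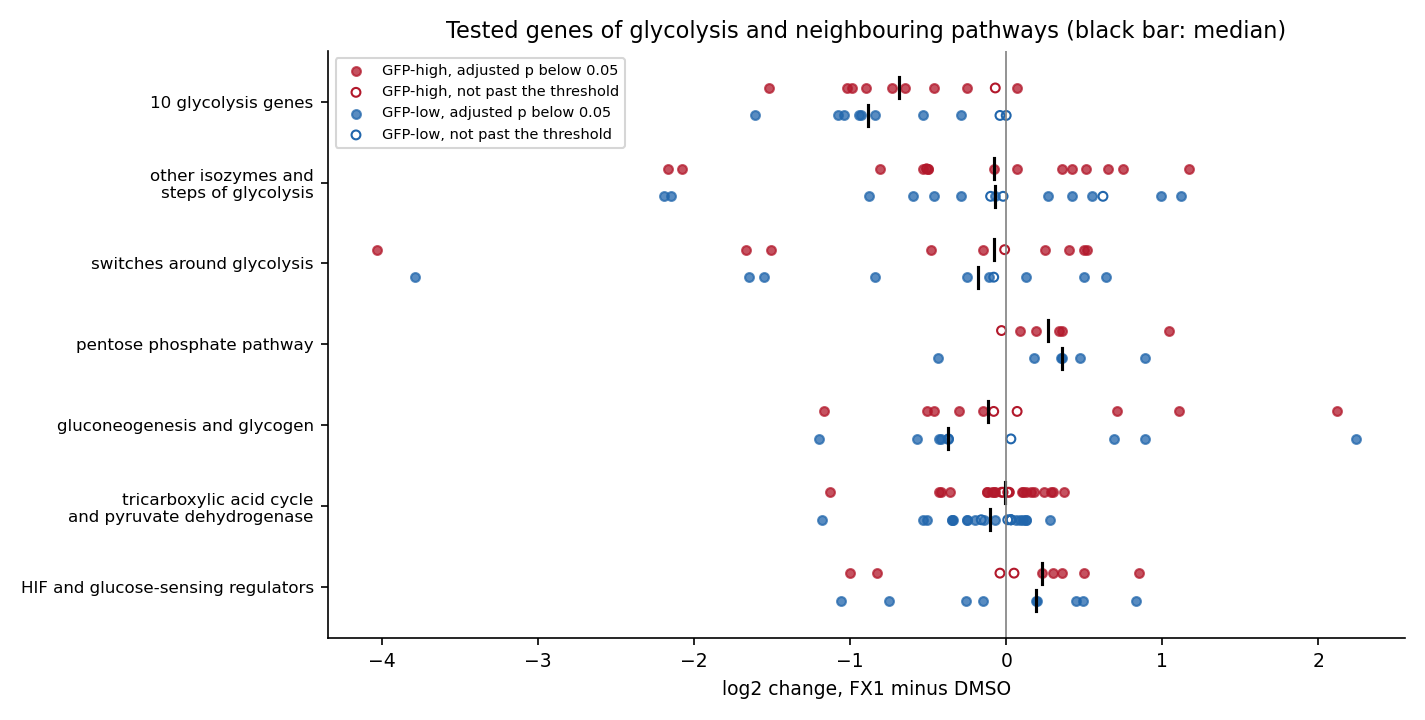
Log2 changes under FX1 (horizontal axis) of the tested genes of glycolysis and of 6 neighbouring lists (rows), in GFP-high and GFP-low cells. Filled points passed an adjusted p of 0.05 and black bars are medians: −0.69 and −0.88 for the 10 glycolysis genes, and 0.26 and 0.36 for the pentose phosphate pathway.

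The neighbouring genes also differed between the gates. Under DMSO, the largest GFP-low minus GFP-high log2 changes among called genes averaging 2 or more in log2 CPM were LDHB at 0.49, SLC2A6 at 0.36 and the muscle enolase ENO3 at 0.31, and the switch genes PFKFB4 at 0.47, PFKFB3 at 0.31 and the lactate transporter SLC16A1 at −0.21. They were PGD at −0.29, PGLS at 0.16 and the isomerase RPIA at −0.15 in the pentose phosphate pathway, and GBE1 at −0.52, the UDP-glucose enzyme UGP2 at −0.35 and PYGB at 0.30 in glycogen metabolism. They were SDHC at 0.53, IDH3A at −0.42 and PDHA1 at −0.39 in mitochondrial carbon oxidation, and EGLN1 at 0.37, MLXIP at 0.27 and HIF1A at 0.14 among the regulators. With the GC and length trend removed, SLC2A6 at 0.11, ENO3 at 0.21, MLXIP at 0.06 and PGLS at −0.02 were no longer called, nor was RPIA with library totals, at −0.02. ENO3 and PGLS also lost their calls without single libraries, at 0.20 without GFP-low DMSO replicate 1 for ENO3 and at 0.12 without GFP-low DMSO replicate 3 for PGLS. Still called but smaller with the trend removed were PFKFB3 at 0.19, SLC16A1 at −0.11, UGP2 at −0.19 and PYGB at 0.13, and, with library totals, PGD at −0.15, SLC16A1 at −0.07 and UGP2 at −0.21.

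Under FX1, the largest gate changes were ENO3 at 0.71, the transporter SLC2A8 at 0.44 and LDHB at −0.39, and the switch genes PFKFB4 at 0.71, the lactate and pyruvate transporter SLC16A7 at −0.47 and PFKFB3 at 0.44. They were RPE at −0.52, PGLS at 0.30 and PGD at −0.29 in the pentose phosphate pathway, and GBE1 at −0.55, PGM2 at −0.42 and UGP2 at −0.41 in glycogen metabolism. They were IDH3A at −0.75, DLAT at −0.53 and DLD at −0.52 in mitochondrial carbon oxidation, and EGLN1 at 0.45, HIF1A at −0.41 and EGLN2 at 0.40 among the regulators. SLC16A7 at −0.06, SLC2A8 at 0.09, HIF1A at −0.02 and PGLS at 0.02 were no longer called with the GC and length trend removed. Smaller but still called were LDHB at −0.25, PFKFB3 at 0.22, RPE at −0.12, PGM2 at −0.14, UGP2 at −0.11, DLD at −0.22 and EGLN2 at 0.20. ENO2 stood at 1.40 (SE 0.313) in this comparison, from a level of at most 1.35 CPM.

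Across the 4 groups, the mean of the centred log2 CPM values of the 10 genes was −0.34 in GFP-high FX1, 0.31 in GFP-high DMSO, −0.35 in GFP-low FX1 and 0.38 in GFP-low DMSO cells. ENO1 lay nearest to this mean profile, with a root mean square difference of 0.0578, and LDHA furthest, with 0.479. Among 8015 other genes whose average log2 CPM was 4 or more, the 6 nearest to the mean profile were CLEC17A at 0.00963, BPTF at 0.0247, TUBE1 at 0.0249, DMAC2L at 0.031, TBC1D22A at 0.0321 and JAKMIP2 at 0.0346. This likeness was measured over 4 group means from 12 libraries that all genes share.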

How the data were processed

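RNA-seq gene counts of 12 libraries were deposited as raw whole-number counts in 1 table, per the file headers. Per the labels' protocols, libraries were made from total RNA after ribosomal depletion, and per the submitters' processing notes FastQC, STAR, featureCounts of Subread, R 4.2.1 and hg38 were used. The annotation release, the strand setting and further settings are not given in the sources used here. Of 60710 data lines, 3 that held 1 broken gene record were left out, and 0 count columns lacked a sample. Symbols were found for 99.7% of genes. The summed counts of a library, 20454028 to 42556661, set the precision of its values.

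Counts were filtered with filterByExpr, scaled by TMM and fitted over all 4 groups with edgeR 4.0.16 in R 4.3.3, using the quasi-likelihood test with Benjamini-Hochberg adjustment over 17859 genes, a threshold of 0.05 and 8 residual degrees of freedom. The fitting code was also run on simulated counts with the same spread for all genes and no GC trend. That run does not bear on how scaling or the GC and length trend move the calls. Replicates differed by more than counting noise, with a chi-square per degree of freedom of 1.67 to 1.95. The spread beyond counting noise was still small, with a common coefficient of variation of 1.67% in the fit, so that small changes could pass the test. Count shares were compared by two-sided exact permutation tests. Alternatives were 4 kinds of scaling, DESeq2 1.42.0, 2 filters, fits of only the groups compared, a replicate block, pseudogene counts added to their parent, removal of a smooth trend on GC content and transcript length (mgcv 1.9.3, with values for 98.3% of tested genes), a test against a 1.5-fold floor, and each library left out. Named were all 10 genes, the other isozymes of their steps, and in each neighbouring list up to 3 called genes with the largest absolute change among those averaging 2 or more in log2 CPM. Some genes of these lists are not reported here. The genes and lists were chosen with earlier results of these data known.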

Additional observations from a re-analysis of the deposited data

Results flagged for a closer look

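The results below are those whose FX1 effect, FX1 minus DMSO on the log2 scale, differed between GFP-low and GFP-high cells by the interaction test (edgeR's quasi-likelihood test, adjusted over all tested genes, n = 3 libraries a group). Each value is the effect in GFP-low cells minus that in GFP-high cells. Among the 10 glycolysis genes the differences were −0.38 for GPI, −0.28 for GAPDH, −0.18 for PGK1, −0.11 for ENO1, −0.08 for LDHA, −0.07 for TPI1, 0.09 for HK2 and 0.17 for PFKL.

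Among the other isozymes and steps they were −0.88 for LDHB, −0.37 for BPGM, −0.35 for PGAM1, −0.14 for PKM, 0.21 for HK1, 0.40 for ENO3 and 1.13 for ENO2. LDHB had opposite signs in the gates. PKM did so in the reported fit, but its GFP-high sign depended on the processing, as given above. The ENO2 call was lost without each of 10 single libraries and the ENO3 call without each of 7.

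Among the switch genes the differences were −0.50 for SLC16A7, −0.37 for TIGAR, −0.36 for PDK3, −0.14 for PDK1, 0.13 for PFKFB3 and 0.24 for PFKFB4. The PFKFB4 difference was 0.13 without GFP-high FX1 replicate 3 and then did not pass. The PFKFB3 call was lost without each of 7 single libraries. In the pentose phosphate pathway they were −0.41 for RPE, −0.15 for TALDO1 and 0.16 for TKT, and in glycogen metabolism −0.28 for PGM2, −0.22 for PYGB and −0.13 for PGM1, the last of which did not pass without GFP-high FX1 replicate 1, at −0.11.

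Among genes of the tricarboxylic acid cycle and pyruvate dehydrogenase the differences were −0.50 for SDHD, −0.40 for SDHC, −0.37 for DLAT, −0.33 for IDH3A, −0.22 for DLD, −0.17 for PDHX, 0.11 for PDHA1 and 0.28 for SDHA, the last of which was 0.18 without GFP-high DMSO replicate 1. Among the regulators they were −0.55 for HIF1A, −0.17 for MLX and 0.40 for EGLN2. After removal of the GC and length trend, SLC16A7 at −0.18, RPE at −0.17, PGM2 at −0.14 and HIF1A at −0.32 were smaller and still passed. The differences that then did not pass were those of LDHA at −0.02, PFKL at −0.02, HK2 at 0.02, BPGM at −0.30, ENO3 at 0.35, ENO2 at 1.06, PDK1 at −0.03, PFKFB3 at 0.02, PFKFB4 at 0.15, TKT at 0.06 and PDHX at −0.11.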

How the results depend on the processing

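The FX1 falls of SLC2A1, HK2, GPI, PGK1, ENO1 and LDHA kept direction and call in both gates under every alternative run. Against the 1.5-fold floor, 3674 genes were called for FX1 in GFP-high, 3606 for FX1 in GFP-low, 199 for the gate under DMSO, 728 for the gate under FX1 and 151 for the difference, against 12224, 12138, 8233, 10158 and 5583 against no change. The glycolysis genes called at that floor were 0 higher for FX1 in GFP-high and 0 in either direction for both gate comparisons and the difference. For FX1 in GFP-high, 0 were higher with upper quartile scaling or the GC and length trend removed. With library totals, 1 was higher for FX1 in GFP-low, 8 were higher and 1 lower for the gate under DMSO, 5 higher and 3 lower for the gate under FX1, and 1 higher for the difference. With the trend removed, 2 were higher for the gate under DMSO, 1 under FX1 and 0 for the difference. The difference gave 1 higher without a filter, with scaling without mitochondrial genes and genes above 1%, and from 1 to 1 without replicates 1, 2 and 3 of GFP-high DMSO.

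Signs turned as follows for genes that passed the test in the reported fit or under the alternative. FX1 in GFP-high: PKM −0.01 and TPI1 −0.01 with upper quartile scaling, PFKP 0.01 and RPE 0.07 with library totals, PKM −0.04, TPI1 −0.05 and RPE 0.08 with the trend removed. FX1 in GFP-low: TPI1 0.06 with library totals and HIF1A 0.08 with the trend removed. Gate under DMSO: PKM 0.11, SLC2A3 0.11, PGK1 0.06 and HK2 0.03 with library totals, and PGLS −0.02, PFKP −0.12, ENO1 −0.06, PGK1 0.01, TPI1 −0.11 and PFKL −0.01 with the trend removed. Gate under FX1: HK1 0.01, TPI1 0.03 and HK2 0.09 with library totals, PFKP −0.14, PFKM −0.02 and PFKL −0.03 with the trend removed, and the count share 0.00139 without mitochondrial genes. Difference: PFKL −0.02 with the trend removed. The cause was not tested. Leaving out 1 library turned 0 of these signs. Among values that passed under neither, ALDOA turned to 0.02 for FX1 in GFP-high and 0.01 in GFP-low with library totals, HK2 to 0.04 for the gate under FX1 with upper quartile scaling, and the differences of SLC2A1 to −0.04 and ALDOA to −0.03 with the trend removed. Library totals moved the median of all genes to 0.09 for FX1 in GFP-high, 0.05 in GFP-low, 0.16 for the gate under DMSO and 0.18 under FX1.

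No pairing by replicate number was seen. The deviations of same-numbered libraries correlated at −0.0225 to 0.0236 over 18 pairs, and 4 of 12 libraries correlated best with their own number. Whether same-numbered libraries shared a culture or batch cannot be told from deviations around means of 3 libraries. With the replicate block 12184, 12101, 8213, 10111 and 5536 genes were called in the 5 comparisons, and of the named genes only ENO2 lost a call (difference 1.13, adjusted p = 0.0516).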
